A study of Sus scrofa with 92 samples.

Results

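Liver biopsies of fasted (FS) pigs taken 8 hours after resuscitation from hemorrhagic shock began (FR8) were compared with Baseline (B) biopsies of these pigs. This comparison is abbreviated FR8vB. The pairs were chosen by the fasted label, the 2 time labels and the animal code in the sample titles, and 3 of the 18 FS animals were left out because their Baseline library lacks albumin mRNA, which left 15 pairs, 30 of the 92 libraries in the series. The animals were juvenile male Yorkshire-Landrace pigs that were fasted overnight, anesthetized, instrumented and splenectomized, then subjected to a blunt chest injury, hemorrhage and a liver crush injury, and resuscitated with fluid and shed blood under ventilator support. The B biopsy was taken once the animal was stable after instrumentation and before the injury. FR2 and FR20 biopsies are labelled as taken 2 and 20 hours after resuscitation began. The paper counts these times, and that of FR8, from full resuscitation. Carbohydrate prefed (CPF) animals were fasted in the same way, received an oral sugar solution before induction and then underwent the same protocol. Of the 15 FS animals kept, 12 carry the label Lived and 3 the label Died. No uninjured animal was sampled over time, so shock, anesthesia, surgery, repeated biopsy, fluids and the hours between the biopsies cannot be told apart in any FR8vB value.

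The liver answers injury by changing what it makes. Cytokines of the interleukin 6 family act through gp130 receptors and STAT3 to raise acute phase proteins such as fibrinogen and C-reactive protein, while carriers such as albumin and transferrin are made less. Hepatocytes that secrete large amounts of protein depend on chaperones of the endoplasmic reticulum, which the unfolded protein response (UPR) raises through the sensors ATF6, IRE1 and PERK. In fasting, glucagon and glucocorticoids hold up gluconeogenesis and amino acid breakdown, sterol regulatory element binding proteins (SREBPs) drive cholesterol and fatty acid synthesis when sterols are low or insulin is high, and much of this metabolism also follows the circadian clock, in which BMAL1 with CLOCK or NPAS2 drives the PER and CRY repressors.

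Several libraries stand apart and bear on each value that follows. Albumin ranged from 59450 (median 120800) to 144100 counts per 1e6 counts of the library (CPM) in the 15 Baseline libraries kept, whereas it lay at 0.197, 52.7 and 0.312 CPM in the Baseline libraries of FS animals 13, 14 and 16, which were left out. The library just inside the rule is that labelled B of FS animal 7 (59450 CPM), followed by that of FS animal 1 (96050 CPM). At FR8, albumin ranged from 34170 (median 48300) to 112500 CPM in the 15 animals kept. Because albumin chose the animals, it is given here as a description and was not tested.

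In FS animal 7 the change ran against that of the other animals. Of the genes called in FR8vB, 30.3% changed in this animal in the direction of the fit, compared with 86.68% to 96.95% in each of the other 14. The library labelled B of FS animal 7 held the highest CRELD2 value of all 15 Baseline libraries and the lowest PER2 value, and the library labelled FR8 held the lowest CRELD2 and the highest albumin value of all 15 FR8 libraries. Its FR2 library held albumin at 34090 CPM of the library total, compared with 81850 to 107200 CPM in the other FS animals kept. Its FR20 library held 58720 CPM, compared with at most 52970 CPM in the others. Whether the libraries of FS animal 7 carry the right labels was not tested, and they entered every fit over 15 animals as labelled. The libraries of FS animal 8 labelled FR2 and FR8 lack counts for a block of neighbouring genes. Of 8142 genes with a mean above 5 CPM in the FR8 libraries, 805 had a count of 0 in both of these libraries, compared with at most 10 in any other FS library kept, and for 99.65% of the 569 that could be placed beside a measured gene the next one along the RefSeq annotation was also at 0. The block holds, for example, the genes of hemoglobin beta (HBB), apolipoprotein A1 and ornithine transcarbamylase (OTC). FS animals 3 and 6 moved in the common direction with smaller changes. Results are therefore given for all 15 pairs, and the main counts and some values also without FS animals 7 and 8.

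**Figure D1:**
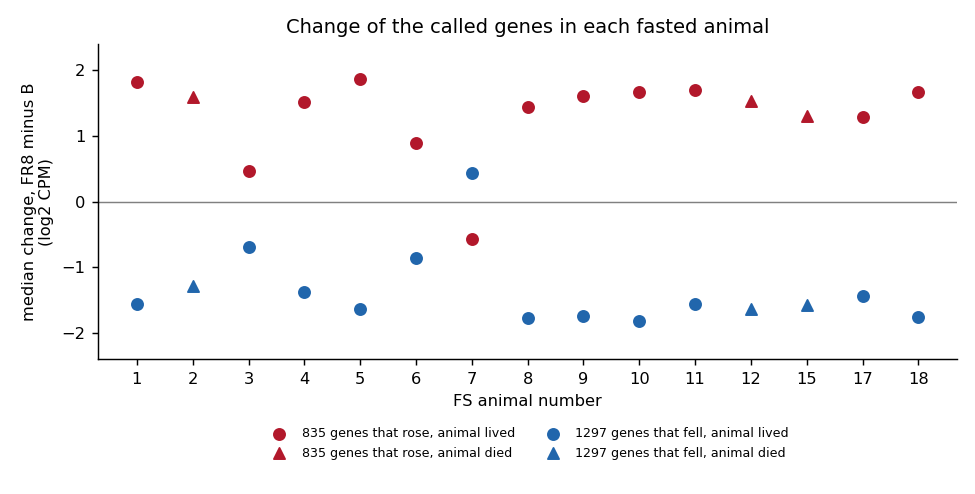
Median change from B to FR8 (log2 CPM, y axis) of the genes that rose (red) and of the genes that fell (blue), for each of the 15 FS animals (x axis), with circles for animals that lived and triangles for animals that died. The genes were called on these same animals; the median of the risen genes is lowest in animal 7 (-0.56), followed by animals 3 (0.46) and 6 (0.89), and lies between 1.29 and 1.87 elsewhere.

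In the FR8vB comparison, 2132 of 13531 genes tested were differentially expressed (15.8%), with 835 upregulated (6.17%) and 1297 downregulated (9.59%). A gene counted as differentially expressed when edgeR's quasi-likelihood F test gave a p under 0.05 after Benjamini-Hochberg adjustment and expression changed at least 2-fold in either direction. The words "rose" and "fell" are used below only for genes that passed both. CPM values from here on are scaled by TMM (trimmed mean of M values). An error after ± is the standard error of the log2 fold change in the fit. The median log2 fold change of all genes tested was 0.01. Of the risen genes 117 were higher at FR8 in all 15 animals, and of the fallen genes 111 were lower in all 15. Without FS animals 7 and 8 the count was 2498 of 13394 genes (18.7%), with 1095 risen (8.18%) and 1403 fallen (10.5%). Values at B and FR8 did not overlap for 11 genes (0.0813% of those tested) among all 15 animals, and for 303 genes (2.24%) without those 2 animals. In bulk tissue, fewer cells of a type and less RNA per cell cannot be told apart.

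Genes of the acute phase response moved in both directions. Of 11 positive acute phase genes measured, 6 rose and 1 fell (median log2 fold change 1.25), and of 13 negative acute phase and secreted hepatocyte genes none rose and 7 fell (median -1.15). ITIH4, an acute phase protein of the pig, ranged from 725 to 11980 CPM at B with a median of 1388, and from 3979 to 35350 CPM at FR8 with a median of 12560 (log2 fold change 2.76 ± 0.34, adjusted p = 2.05e-09). It was higher in 14 of 15 animals. The exception was FS animal 7, and without FS animals 7 and 8 all FR8 libraries lay above all B libraries (725 to 3232 CPM at B and 3979 to 35350 CPM at FR8). Lipocalin 2 (LCN2), which binds bacterial siderophores, ranged from 0.174 to 35.1 CPM at B with a median of 1.69, and from 2.57 to 52.4 CPM at FR8 with a median of 10.5 (log2 fold change 2.41 ± 0.46, adjusted p = 1.93e-05). LPS binding protein (LBP), which hands bacterial lipopolysaccharide to CD14, ranged from 10.1 to 1042 CPM at B with a median of 254, and from 69.7 to 1316 CPM at FR8 with a median of 735 (log2 fold change 1.62 ± 0.24, adjusted p = 1.2e-07). The fibrinogen gamma chain (FGG) ranged from 9722 to 34720 CPM at B with a median of 12750, and from 17820 to 71300 CPM at FR8 with a median of 34380 (log2 fold change 1.43 ± 0.19, adjusted p = 1.59e-08). C-reactive protein (CRP), an opsonin, ranged from 576 to 3390 CPM at B with a median of 1294, and from 1703 to 6547 CPM at FR8 with a median of 3405 (log2 fold change 1.29 ± 0.21, adjusted p = 1.42e-06). LBP, FGG and CRP were each higher at FR8 in 14 of 15 animals, with overlapping ranges. The fibrinogen beta chain (FGB) rose with a log2 fold change of 1.25 ± 0.37. SLC39A14, a zinc and iron importer that interleukin 6 induces in hepatocytes, belonged to the 15 risen genes with the smallest p and was higher in all 15 animals (176 to 777 CPM at B with median 259.6, 361 to 1186 CPM at FR8 with median 915, log2 fold change 1.52 ± 0.17, adjusted p = 1.34e-10).

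Among the negative reactants, corticosteroid binding globulin (SERPINA6), the plasma carrier of cortisol, fell furthest. It ranged from 21.4 to 719.6 CPM at B with a median of 479.8, and from 10.6 to 186 CPM at FR8 with a median of 31.2 (log2 fold change -3.58 ± 0.37, adjusted p = 3.62e-11). Without FS animals 7 and 8 the lowest B value (118 CPM) lay above the highest FR8 value (55.7 CPM). Transferrin (TF), the iron carrier of plasma, ranged from 9437 to 32480 CPM at B with a median of 27700, and from 6017 to 17100 CPM at FR8 with a median of 9705 (log2 fold change -1.38 ± 0.18, adjusted p = 1.29e-08). Its groups likewise did not overlap without these 2 animals. Fetuin A (AHSG) fell with a log2 fold change of -1.27 ± 0.16 and histidine-rich glycoprotein (HRG) with -1.80 ± 0.28, each lower in 14 of 15 animals. ITIH3, listed with the positive reactants, fell, with values from 1278 to 4591 CPM at B with a median of 2997, and from 846 to 2250 CPM at FR8 with a median of 1267 (log2 fold change -1.14 ± 0.11, adjusted p = 1.39e-11). Among complement genes 5 of 18 fell and none rose, led by mannose-binding lectin 2 (MBL2), which starts the lectin pathway (13.2 to 1468 CPM at B with median 697, 14.1 to 109.7 CPM at FR8 with median 62.8, log2 fold change -3.19 ± 0.43, adjusted p = 1.55e-08). Among coagulation genes 5 of 17 fell and none rose. Plasma kallikrein (KLKB1), which activates the contact system, was among the 15 fallen genes with the smallest p (92.4 to 646 CPM at B with median 485, 39.6 to 244 CPM at FR8 with median 89.7, log2 fold change -2.15 ± 0.21, adjusted p = 7.74e-12).

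Genes for NF-kappaB feedback and innate sensors moved in both directions, with 4 of 20 risen, 2 fallen and a median of -0.10. MYD88, the adaptor of Toll-like and interleukin 1 receptors, had the smallest p of the risen genes under the naming rule. Its values ran from 15.8 to 70.9 CPM at B with a median of 27.3, and from 60.3 to 134 CPM at FR8 with a median of 97.5 (log2 fold change 1.60 ± 0.14, adjusted p = 6.13e-13). It was higher in 14 of 15 animals. Toll-like receptor 2 (TLR2) ranged from 6.76 to 19.7 CPM at B with a median of 9.57, and from 0 to 50.5 CPM at FR8 with a median of 30.7 (log2 fold change 1.46 ± 0.30, adjusted p = 5.79e-05). The value of 0 is that of FS animal 8, since TLR2 lies in its block. NOD1, a cytosolic sensor of bacterial peptidoglycan, ranged from 0.628 to 7.24 CPM at B with a median of 2.13, and from 2.13 to 17.2 CPM at FR8 with a median of 8.81 (log2 fold change 1.80 ± 0.27, adjusted p = 1.36e-07). BCL3, an atypical inhibitor of the NF-kappaB family that binds p50 and p52 dimers, rose with a log2 fold change of 1.88 ± 0.27. Toll-like receptor 4 (TLR4), the receptor for lipopolysaccharide, had a log2 fold change of 0.70 ± 0.15, below the fold threshold. NFKBIA, which encodes the feedback inhibitor IkappaB alpha, ranged from 43.2 to 135 CPM at B with a median of 84.0, and from 17.6 to 58.1 CPM at FR8 with a median of 38.9 (log2 fold change -1.03 ± 0.16, adjusted p = 3.74e-07). TNFAIP3, which encodes the deubiquitinase A20, ranged from 7.42 to 25.3 CPM at B with a median of 16.7, and from 4.77 to 12.1 CPM at FR8 with a median of 7.64 (log2 fold change -1.13 ± 0.19, adjusted p = 2.82e-06) and was lower in all 15 animals.

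On the interleukin 6, interleukin 10 and STAT3 axis 3 of 16 genes rose and none fell. The oncostatin M receptor (OSMR), which signals through gp130, was higher in all 15 animals (18.1 to 96.2 CPM at B with median 24.2, 52.8 to 238 CPM at FR8 with median 127, log2 fold change 1.96 ± 0.23, adjusted p = 3.26e-10). STAT3, the transcription factor that these receptors activate, ranged from 29.8 to 242 CPM at B with a median of 81.2, and from 98.0 to 497 CPM at FR8 with a median of 255 (log2 fold change 1.35 ± 0.22, adjusted p = 6.12e-07). The decoy receptor of interleukin 1 (IL1R2) was also higher in all 15 animals, at low counts (0 to 0.955 CPM at B with median 0.587, 0.592 to 3.82 CPM at FR8 with median 1.43, log2 fold change 1.83 ± 0.32, adjusted p = 4.46e-06). None of the 9 chemokine and adhesion genes measured passed the test, at an edgeR adjusted p under 0.05 with a fold change of at least 2. Of 18 interferon-stimulated genes 1 rose (ISG20, an exonuclease, log2 fold change 1.70 ± 0.29) and 1 fell (OAS2, an oligoadenylate synthetase, -1.33 ± 0.25).

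Chaperones of the endoplasmic reticulum had the highest median change of the pathway lists. Of 17 UPR genes measured 11 rose and none fell, with a median of 1.34 for all 15 animals and 1.54 without FS animals 7 and 8, when 14 rose. The median over the 17 genes was above 0 in 14 animals (0.49 to 2.91) and -2.23 in FS animal 7. CRELD2, an endoplasmic reticulum protein induced by ATF6, ranged from 20.1 to 1446 CPM at B with a median of 28.4, and from 59.9 to 1579 CPM at FR8 with a median of 674 (log2 fold change 3.70 ± 0.56, adjusted p = 2.09e-07). The highest Baseline value, which exceeds the FR8 median, is that of the library labelled B of FS animal 7, and the next (505 CPM) that of FS animal 3. BiP (HSPA5), the central chaperone of the endoplasmic reticulum, ranged from 308 to 7574 CPM at B with a median of 569, and from 649 to 8900 CPM at FR8 with a median of 3587 (log2 fold change 2.37 ± 0.38, adjusted p = 8.11e-07). Its co-chaperone DNAJB11 ranged from 38.5 to 623 CPM at B with a median of 62.0, and from 58.7 to 812 CPM at FR8 with a median of 348 (log2 fold change 2.22 ± 0.34, adjusted p = 1.95e-07). In both genes the groups overlapped, with the 2 highest Baseline values in FS animals 7 and 3 and the lowest FR8 value in FS animal 7, which for DNAJB11 lay below the Baseline median. GRP94 (HSP90B1) rose with a log2 fold change of 1.97 ± 0.29, calreticulin (CALR) with 1.34 ± 0.21, HYOU1 with 2.13 ± 0.54 (2.73 without FS animals 7 and 8) and the disulfide isomerase PDIA4 with 1.61 ± 0.49, the latter 2 at 0 in FS animal 8. CREB3L3, a liver transcription factor released from the endoplasmic reticulum by proteolysis, ranged from 111 to 828 CPM at B with a median of 194, and from 177 to 1198 CPM at FR8 with a median of 972 (log2 fold change 1.90 ± 0.21, adjusted p = 2.09e-10). ERN1, which encodes IRE1 and is named through the study's tables and so not counted in the list, fell (36.1 to 200 CPM at B with median 127, 24.6 to 51.5 CPM at FR8 with median 37.4, log2 fold change -1.73 ± 0.16, adjusted p = 1.91e-12), and its target XBP1, which is counted, had a log2 fold change of 0.62 ± 0.14, below the fold threshold, in a count that does not separate its spliced form.

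Cytosolic and mitochondrial heat shock proteins rose in part. Of 19 genes 9 rose and 1 fell (median 0.94). HSP90AA1, the inducible cytosolic HSP90, ranged from 270.1 to 1965 CPM at B with a median of 369, and from 629 to 2735 CPM at FR8 with a median of 1486 (log2 fold change 1.76 ± 0.23, adjusted p = 1.14e-08), and HSPA4L, a nucleotide exchange factor of HSP70, rose with a log2 fold change of 2.24 ± 0.55 at low counts. The mitochondrial chaperonin HSPD1 rose by 1.18 ± 0.16 on the log2 scale, and HSPA8, constitutive HSP70, by 1.51 ± 0.42, with FS animal 8 at 0. BAG3, a co-chaperone of HSP70 in selective autophagy, fell (186 to 1177 CPM at B with median 436, 90.8 to 363 CPM at FR8 with median 171, log2 fold change -1.33 ± 0.28, adjusted p = 9.02e-05). Of 19 proteasome subunits 3 rose and none fell, among them PSMA5 (1.18 ± 0.13) and PSMD14 (1.11 ± 0.14). None of 22 ribosome biogenesis genes and none of 19 genes of the respiratory chain passed the edgeR call in either direction, with medians of 0.17 and 0.05.

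**Figure D2:**
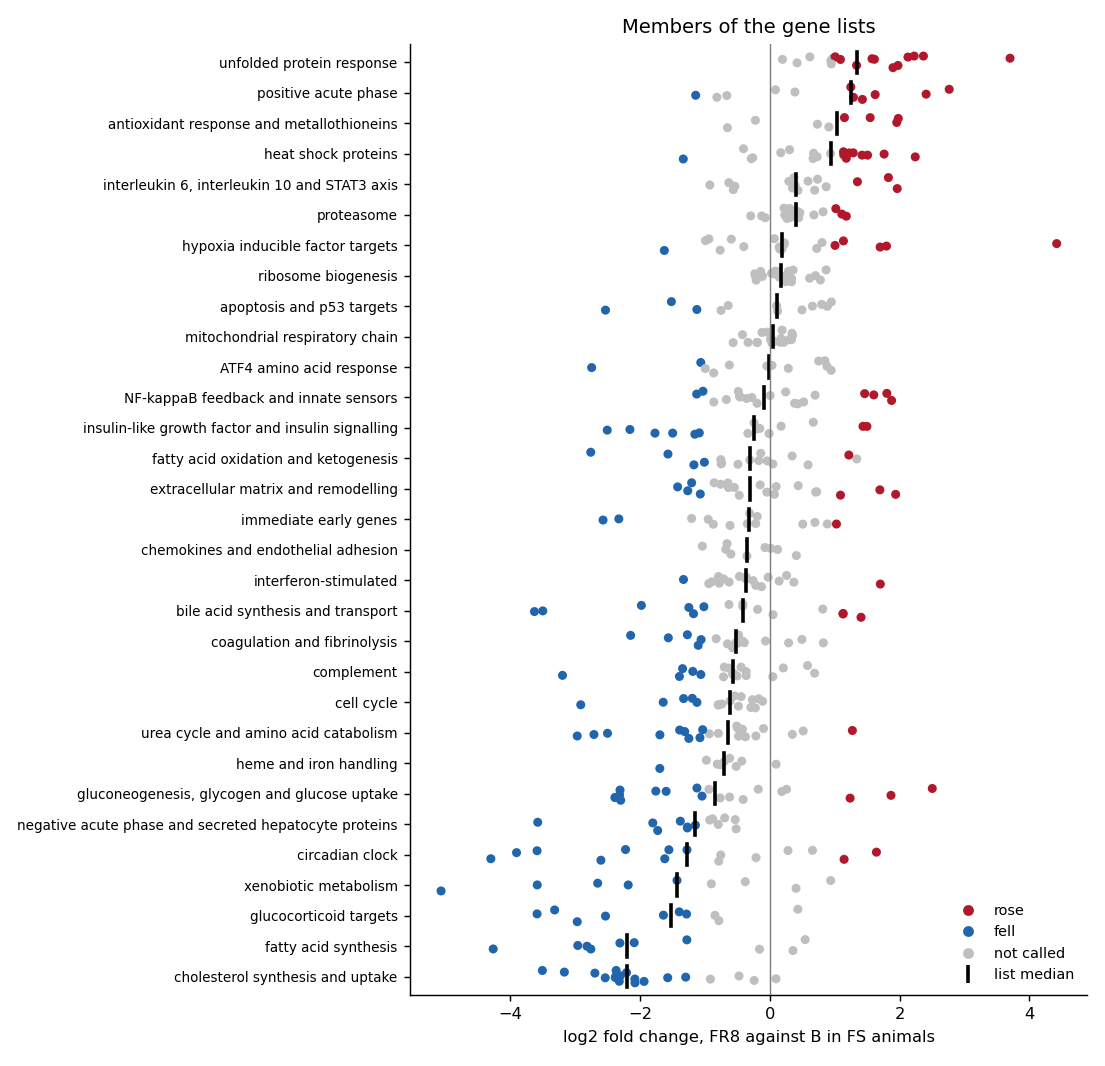
Log2 fold change of FR8 against B in the 15 FS animals (x axis) for each measured member of 31 gene lists (rows), with red for genes that rose, blue for genes that fell and grey for genes not called; the black bar is the median of the list. The lists run from cholesterol synthesis at the bottom (15 of 19 genes fell, median -2.21) to the unfolded protein response at the top (11 of 17 rose, median 1.34).

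Enzymes of cholesterol synthesis fell together. Of 19 genes for cholesterol synthesis and uptake 15 fell and none rose (median -2.21), and of 10 genes of fatty acid synthesis 7 fell and none rose (median -2.20). Over the members, the median change was negative in 14 of 15 animals for both lists, with FS animal 7 at 0.84 and 0.48. IDI1, an isomerase of the mevalonate pathway, ranged from 9.63 to 653 CPM at B with a median of 320.4, and from 3.25 to 137 CPM at FR8 with a median of 17.2 (log2 fold change -3.50 ± 0.46, adjusted p = 8.33e-09). Squalene epoxidase (SQLE), the first oxygenation step towards sterols, ranged from 16.3 to 409.5 CPM at B with a median of 248, and from 10.9 to 97.5 CPM at FR8 with a median of 20.9 (log2 fold change -3.17 ± 0.39, adjusted p = 2.02e-09). Both were lower in 14 of 15 animals. HMGCS1 and MSMO1, which act before and after the squalene steps, fell with log2 fold changes of -2.37 ± 0.41 and -2.70 ± 0.34. INSIG1, a target of SREBP that retains SREBP in the endoplasmic reticulum, fell as well (89.5 to 2279 CPM at B with median 762, 38.7 to 579 CPM at FR8 with median 116, log2 fold change -2.54 ± 0.41, adjusted p = 6.95e-07).

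Fatty acid synthase (FASN) had one of the 10 largest decreases under the naming rule, from 10.18 to 1097 CPM at B with a median of 178, and from 2.46 to 40.0 CPM at FR8 with a median of 7.96 (log2 fold change -4.26 ± 0.52, adjusted p = 1.26e-09). The lowest Baseline values were those of FS animals 3 (10.18 CPM) and 7 (13.7 CPM), and the groups overlapped. Stearoyl-CoA desaturase (SCD), which makes monounsaturated fatty acids, ranged from 14.2 to 2792 CPM at B with a median of 235, and from 13.3 to 211 CPM at FR8 with a median of 28.1 (log2 fold change -2.82 ± 0.39, adjusted p = 2.98e-08). FADS1, the delta-5 desaturase, ranged from 36.5 to 1996 CPM at B with a median of 707, and from 36.7 to 408 CPM at FR8 with a median of 72.7 (log2 fold change -2.96 ± 0.39, adjusted p = 7.03e-09). Acetyl-CoA carboxylase alpha (ACACA) fell with a log2 fold change of -2.09 ± 0.26 and FADS2 with -2.76 ± 0.45. Lipin 1 (LPIN1), a phosphatidate phosphatase that also acts with PGC-1 alpha on oxidation genes, ranged from 4.04 to 387 CPM at B with a median of 114, and from 0.455 to 32.9 CPM at FR8 with a median of 3.69 (log2 fold change -4.44 ± 0.49, adjusted p = 1.15e-10). Without FS animals 7 and 8 the groups did not overlap. By contrast perilipin 2 (PLIN2), a coat protein of lipid droplets, had the largest increase among the named genes with a mean of at least 5 CPM at 1 timepoint, from 22.6 to 573 CPM at B with a median of 36.3, and from 187 to 2646 CPM at FR8 with a median of 787 (log2 fold change 3.78 ± 0.47, adjusted p = 2.03e-09). Of 17 genes for fatty acid oxidation and ketogenesis 1 rose and 4 fell (median -0.31). The riser was the acyl-CoA synthetase ACSL1 (1.22 ± 0.29), and the furthest fallen was BDH1, which makes beta-hydroxybutyrate (43.4 to 433 CPM at B with median 252, 11.7 to 231 CPM at FR8 with median 25.6, log2 fold change -2.76 ± 0.34, adjusted p = 1.83e-09).

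Glucose metabolism genes changed on both sides of the pathway. Of 18 genes 3 rose and 8 fell (median -0.85). PCK1, which catalyses the committed step of gluconeogenesis, ranged from 1437 to 8183 CPM at B with a median of 3527, and from 503 to 3574 CPM at FR8 with a median of 1115 (log2 fold change -1.60 ± 0.38, adjusted p = 4.61e-04). The glucose-6-phosphate transporter SLC37A4 ranged from 223 to 1393 CPM at B with a median of 841, and from 0 to 616 CPM at FR8 with a median of 152 (log2 fold change -2.31 ± 0.45, adjusted p = 2.12e-05), with FS animal 8 at 0. Liver glycogen synthase (GYS2) ranged from 153 to 822 CPM at B with a median of 599, and from 45.3 to 463 CPM at FR8 with a median of 68.3 (log2 fold change -2.39 ± 0.33, adjusted p = 2.23e-08), with no overlap once FS animals 7 and 8 were left out. The pyruvate dehydrogenase kinases PDK2 and PDK4, which restrain glucose oxidation in fasting, fell with log2 fold changes of -2.32 ± 0.30 and -2.30 ± 0.56, PDK2 in all 15 animals. Of the 18 genes 2 lie in the block of FS animal 8. The lowest change of PDK4 in any FS animal was -11.9 on the log2 scale. Leaving out 1 FS animal gave PDK4 log2 fold changes from -2.67 to -2.155. Ketohexokinase (KHK), which phosphorylates fructose, fell with a log2 fold change of -1.76 ± 0.20. Among the risen genes were the glycogen-targeting subunits of protein phosphatase 1, PPP1R3C (2.67 to 153 CPM at B with median 10.6, 23.5 to 168 CPM at FR8 with median 76.0, log2 fold change 1.87 ± 0.48, adjusted p = 9.57e-04) and PPP1R3B (1.24 ± 0.40).

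Genes of amino acid breakdown fell more often than they rose, at 9 and 1 of 22 (median -0.65). Tyrosine aminotransferase (TAT) ranged from 379 to 7384 CPM at B with a median of 3421, and from 110.2 to 1492 CPM at FR8 with a median of 279 (log2 fold change -2.97 ± 0.44, adjusted p = 1.58e-07). Kynurenine 3-monooxygenase (KMO), of tryptophan breakdown, ranged from 78.5 to 516 CPM at B with a median of 402, and from 29.4 to 259.7 CPM at FR8 with a median of 44.1 (log2 fold change -2.71 ± 0.29, adjusted p = 8.17e-11). Urocanase (UROC1), of histidine breakdown, ranged from 157 to 558 CPM at B with a median of 425, and from 28.2 to 248 CPM at FR8 with a median of 55.1 (log2 fold change -2.50 ± 0.25, adjusted p = 2.46e-11). For KMO and UROC1 all B values exceeded all FR8 values once FS animals 7 and 8 were left out. The first enzyme of histidine breakdown, histidase (HAL), rose (26.6 to 220.5 CPM at B with median 54.2, 59.3 to 401 CPM at FR8 with median 181, log2 fold change 1.27 ± 0.31, adjusted p = 6.19e-04). Sarcosine dehydrogenase (SARDH), a mitochondrial enzyme of choline breakdown outside the list, was among the fallen genes with the smallest p (68.2 to 425 CPM at B with median 247, 24.2 to 150.5 CPM at FR8 with median 44.6, log2 fold change -2.21 ± 0.20, adjusted p = 1.91e-12), as was GSTZ1, of phenylalanine and tyrosine breakdown (log2 fold change -1.97 ± 0.19). OTC, a urea cycle enzyme in the block of FS animal 8, fell with a log2 fold change of -1.69 ± 0.39 and ranged, without FS animals 7 and 8, from 453 to 809 CPM at B and from 129.7 to 298 CPM at FR8.

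Of 15 genes for bile acids 3 rose and 6 fell. CYP7A1, the rate-limiting enzyme of bile acid synthesis, ranged from 22.7 to 663 CPM at B with a median of 179.8, and from 4.98 to 58.0 CPM at FR8 with a median of 10.96 (log2 fold change -3.50 ± 0.52, adjusted p = 1.5e-07). NTCP (SLC10A1), the basolateral uptake carrier, ranged from 55.1 to 810 CPM at B with a median of 611, and from 13.4 to 155 CPM at FR8 with a median of 41.7 (log2 fold change -3.63 ± 0.36, adjusted p = 1.37e-11). The bile salt export pump (ABCB11) fell in all 15 animals (43.0 to 387 CPM at B with median 119, 7.76 to 71.4 CPM at FR8 with median 33.2, log2 fold change -1.98 ± 0.31, adjusted p = 4.88e-07). SLC10A1 and ABCB11 did not overlap between B and FR8 without FS animals 7 and 8. Those that rose were ABCC2, the canalicular exporter of bilirubin conjugates (38.8 to 214 CPM at B with median 96.0, 57.3 to 377 CPM at FR8 with median 269, log2 fold change 1.41 ± 0.24, adjusted p = 3.13e-06), ABCC3, its basolateral counterpart (1.13 ± 0.19), and NR0B2, the nuclear receptor SHP that represses CYP7A1 (1.13 ± 0.36, higher in 11 of 15 animals). Among 9 xenobiotic genes 5 fell and none rose (median -1.43). CYP1A1, induced through the aryl hydrocarbon receptor, ranged from 25.6 to 9703 CPM at B with a median of 111, and from 0 to 1029 CPM at FR8 with a median of 3.9 (log2 fold change -5.07 ± 0.83, adjusted p = 9.72e-07), with the highest Baseline value, that of FS animal 10, far above the median. CYP1A2, a close paralog with which reads can be shared, fell with a log2 fold change of -2.65 ± 0.46, CYP2E1 with -1.43 ± 0.19 and the flavin monooxygenase FMO5 with -3.58 ± 0.41. The largest decrease of all genes named by rule was that of ADH4, an alcohol dehydrogenase that also oxidises retinol (46.2 to 791 CPM at B with median 379.5, 0 to 198 CPM at FR8 with median 5.13, log2 fold change -5.41 ± 0.68, adjusted p = 2.58e-09). FS animal 8 is at 0 through the block, and the other FR8 libraries, FS animal 7 aside, ranged from 2.58 to 37.0 CPM. ALAS1, which starts heme synthesis, fell with a log2 fold change of -1.70 ± 0.37. It was the only one of the 9 heme and iron genes counted to pass. SLC39A14 is on this list too, but is named through the study's tables and so not counted, and rose (1.52 ± 0.17).

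**Figure D3:**
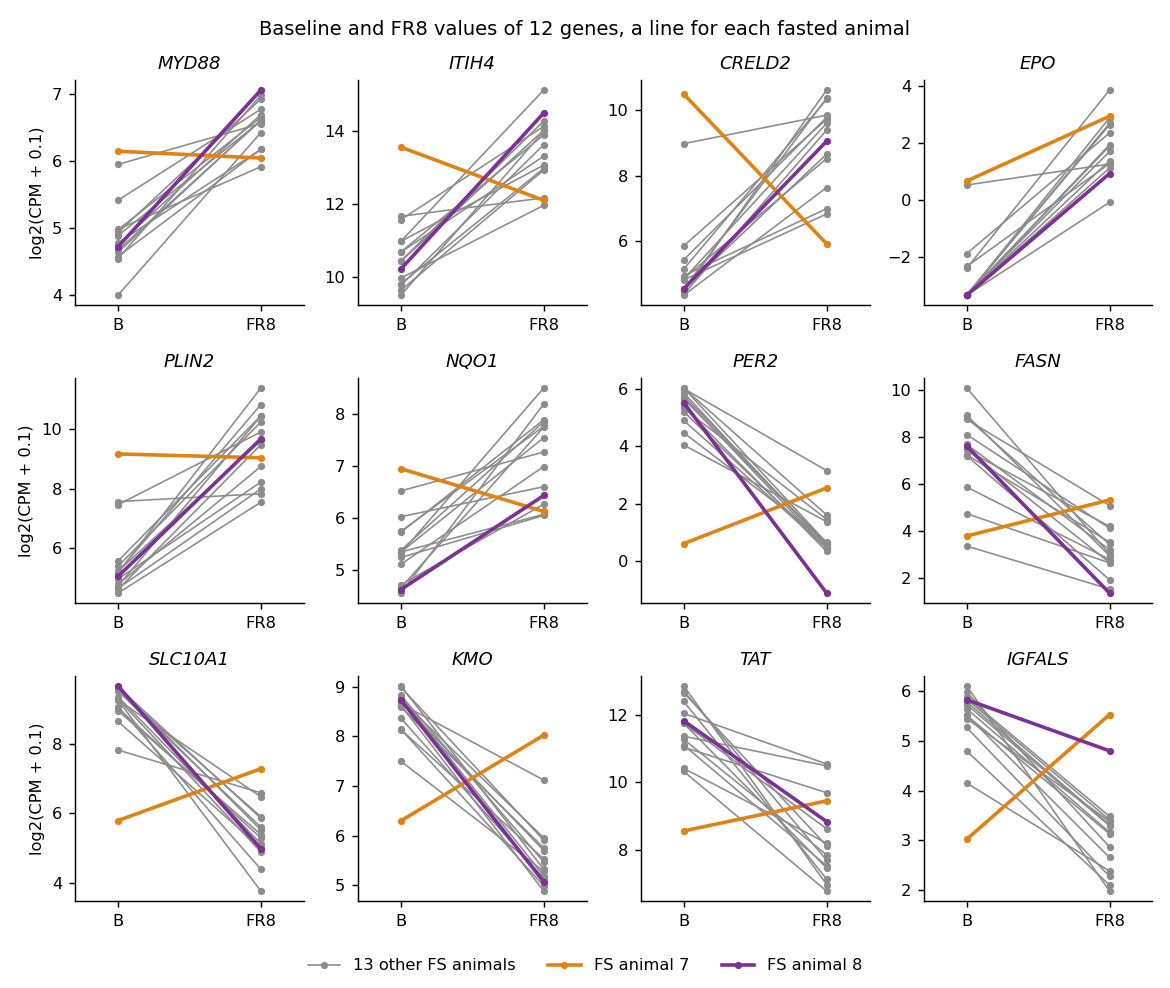
Values at B and FR8 on the scale log2(CPM + 0.1) (y axis) for 12 genes, with a line for each FS animal, orange for animal 7, purple for animal 8 and grey for the other 13. MYD88, ITIH4, CRELD2, EPO, PLIN2 and NQO1 rose and PER2, FASN, SLC10A1, KMO, TAT and IGFALS fell in the fit; except for EPO, the line of animal 7 runs against the direction of the fit in each panel.

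Clock genes changed in both directions. Of 15 clock genes 2 rose and 8 fell (median -1.28). PER2, a repressor of the clock, had the smallest p of the fallen genes under the naming rule. Its values ran from 1.43 to 65.4 CPM at B with a median of 45.8, and from 0.364 to 8.82 CPM at FR8 with a median of 1.44 (log2 fold change -4.30 ± 0.37, adjusted p = 6.13e-13). PER1 ranged from 15.5 to 329.8 CPM at B with a median of 148, and from 2.24 to 35.7 CPM at FR8 with a median of 5.36 (log2 fold change -3.59 ± 0.45, adjusted p = 3.63e-09). The groups of both genes did not overlap without FS animals 7 and 8. NR1D2, which encodes REV-ERB beta, ranged from 14.9 to 173 CPM at B with a median of 88.7, and from 5.7 to 96.5 CPM at FR8 with a median of 10.5 (log2 fold change -2.60 ± 0.33, adjusted p = 4.68e-09). The clock output deubiquitinase USP2 was lower in all 15 animals (3.45 to 96.3 CPM at B with median 58.0, 0 to 33.9 CPM at FR8 with median 3.09, log2 fold change -3.90 ± 0.50, adjusted p = 5.87e-09). The output factor DBP fell with a log2 fold change of -2.22 ± 0.47 and CRY2 with -1.62 ± 0.31. NPAS2, the partner of BMAL1, rose in all 15 animals (0.288 to 7.16 CPM at B with median 1.74, 1.92 to 16.9 CPM at FR8 with median 6.13, log2 fold change 1.64 ± 0.35, adjusted p = 1.04e-04), and BMAL1 rose by 1.14 ± 0.37 on the log2 scale. The biopsies of an animal were taken at different clock hours, so the time of day and the course of shock cannot be told apart here.

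Targets of the glucocorticoid receptor were lower at FR8. Of 10 such genes 7 fell and none rose (median -1.52). KLF9 ranged from 30.3 to 574 CPM at B with a median of 408, and from 16.1 to 90.8 CPM at FR8 with a median of 25.5 (log2 fold change -3.32 ± 0.33, adjusted p = 1.37e-11), without overlap when FS animals 7 and 8 were left out. GADD45B, a stress-inducible gene, ranged from 17.6 to 384 CPM at B with a median of 109.6, and from 8.03 to 70.9 CPM at FR8 with a median of 15.8 (log2 fold change -2.53 ± 0.45, adjusted p = 4.43e-06). The phosphatase DUSP1 and the kinase SGK1 fell with log2 fold changes of -1.40 ± 0.28 and -1.28 ± 0.39. TSC22D3, which encodes the glucocorticoid-induced leucine zipper GILZ and is named through the study's tables and so not counted in the list, had one of the 10 largest decreases, from 16.7 to 430.3 CPM at B with a median of 284, and from 0 to 56.2 CPM at FR8 with a median of 12.8 (log2 fold change -4.11 ± 0.47, adjusted p = 3.35e-10), and lies in the block of FS animal 8. PER1 and TAT are counted in this list too. Of 14 immediate early genes 1 rose and 2 fell, among the latter the orphan receptor NR4A3 (-2.57 ± 0.50).

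Genes of the oxidative stress and hypoxia responses rose in part. Of 8 antioxidant genes 4 rose and none fell (median 1.03), and all 4 are targets of NRF2. NQO1, a quinone reductase, ranged from 23.2 to 123.4 CPM at B with a median of 40.4, and from 66 to 364 CPM at FR8 with a median of 154 (log2 fold change 1.96 ± 0.36, adjusted p = 9.81e-06). Sulfiredoxin (SRXN1) and thioredoxin reductase 1 (TXNRD1) were higher in all 15 animals, SRXN1 from 25.9 to 264 CPM at B with a median of 54.7, and from 179 to 607 CPM at FR8 with a median of 286 (log2 fold change 1.98 ± 0.27, adjusted p = 1.59e-08) and TXNRD1 with a log2 fold change of 1.15 ± 0.16. Peroxiredoxin 1 (PRDX1) rose by 1.55 ± 0.21 on that scale. Of 19 targets of hypoxia inducible factors 5 rose and 1 fell (median 0.19). Erythropoietin (EPO), the hormone of red cell formation, had few counts at B and was higher at FR8 in all 15 animals (0 to 1.5 CPM at B with median 0, 0.856 to 14.5 CPM at FR8 with median 3.64, log2 fold change 4.42 ± 0.76, adjusted p = 2.77e-06). Its log2 fold change was 5.03 without FS animal 3 and 5.19 without FS animal 7. The prolyl hydroxylase EGLN3 ranged from 3.23 to 19.3 CPM at B with a median of 7.73, and from 10.19 to 52.0 CPM at FR8 with a median of 31.6 (log2 fold change 1.80 ± 0.22, adjusted p = 1.69e-09). P4HA2 rose by 1.70 ± 0.22 and lactate dehydrogenase A (LDHA) by 1.13 ± 0.18. VEGFA had a log2 fold change of 0.15 ± 0.11 and did not pass (edgeR adjusted p = 0.245). FGF23, a phosphate-regulating hormone otherwise made mainly in bone, also rose in all 15 animals (0 to 1.51 CPM at B with median 0.837, 1.48 to 22.5 CPM at FR8 with median 5.69, log2 fold change 3.63 ± 0.57, adjusted p = 4.49e-07).

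Genes of growth signalling fell more often than they rose, at 6 and 2 of 15. IGFALS, which holds insulin-like growth factors in the circulating ternary complex, ranged from 8.01 to 68.9 CPM at B with a median of 50.1, and from 3.83 to 46.2 CPM at FR8 with a median of 8.82 (log2 fold change -2.16 ± 0.32, adjusted p = 1.09e-07). IGF1 ranged from 0.736 to 12.2 CPM at B with a median of 6.58, and from 1.01 to 5.8 CPM at FR8 with a median of 2.31 (log2 fold change -1.09 ± 0.27, adjusted p = 7.4e-04), with a log2 fold change close to the threshold of 1. IGFBP1, which insulin represses and fasting raises, ranged from 426 to 8490 CPM at B with a median of 3821, and from 51.7 to 3101 CPM at FR8 with a median of 646 (log2 fold change -2.51 ± 0.42, adjusted p = 1.64e-06). The transcription factors FOXO1 and FOXO3, which insulin signalling keeps out of the nucleus, fell with log2 fold changes of -1.50 ± 0.19 and -1.77 ± 0.32, FOXO3 in all 15 animals. PIK3R1 was called as risen under 1 identifier at below 1 CPM on average (1.44 ± 0.50), while a second identifier with this symbol had a log2 fold change of -0.79 ± 0.25, so its direction is uncertain. Of 17 cell cycle genes 5 fell and none rose (median -0.61), with cyclin E2 (CCNE2) lower in all 15 animals (0.846 to 4.78 CPM at B with median 3.02, 0 to 1.14 CPM at FR8 with median 0.26, log2 fold change -2.91 ± 0.41, adjusted p = 3.47e-08) and E2F1 lower with a log2 fold change of -1.64 ± 0.38. Of 12 genes for apoptosis and p53 targets 3 fell and none rose. TP53INP1, on that list but named through the study's tables and so not counted, also fell (-3.28 ± 0.30). Of 13 ATF4 targets 2 fell and none rose, with sestrin 2 (SESN2) the lowest (-2.75 ± 0.31). Of 20 matrix genes 3 rose and 4 fell. TIMP1, an inhibitor of matrix metalloproteinases, rose (5.22 to 131 CPM at B with median 11.5, 0 to 222 CPM at FR8 with median 75.8, log2 fold change 1.94 ± 0.50, adjusted p = 0.00114), with FS animal 8 at 0 through its block, and the matrix glycoprotein tenascin C (TNC) rose by 1.70 ± 0.42. The collagen gene COL1A2 fell with a log2 fold change of -1.20 ± 0.35, which was -1.02 without FS animal 8.

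Other genes were named by the smallest p and are not counted in the lists. POLR2H, a subunit shared by the nuclear RNA polymerases, was higher in all 15 animals (17.02 to 90.2 CPM at B with median 28.4, 60.9 to 160 CPM at FR8 with median 114, log2 fold change 1.78 ± 0.17, adjusted p = 7.68e-12). PAPOLA, a poly(A) polymerase, ranged from 60.7 to 191 CPM at B with a median of 79.5, and from 125 to 259 CPM at FR8 with a median of 203 (log2 fold change 1.17 ± 0.11, adjusted p = 7.11e-12). The retinoic acid receptor RARB rose by 1.52 ± 0.16, the kinase LIMK1, which phosphorylates cofilin, by 2.15 ± 0.24, and ZNF318, CAPNS1 and THUMPD3 by 1.31, 1.15 and 1.19 on the log2 scale. The other risen genes picked in this way were ZNHIT6, SLC5A6, LETM1, KDM1A, CERS4 and TBC1D24. Of the fallen ones, TP53INP1, a p53 target that promotes autophagy, ranged from 46.0 to 1355 CPM at B with a median of 725, and from 38.9 to 183 CPM at FR8 with a median of 62.4 (log2 fold change -3.28 ± 0.30, adjusted p = 2.34e-12). It is listed with the p53 targets, but is named through the study's tables and so not counted there. Agrin (AGRN) fell with a log2 fold change of -1.38 ± 0.12 and the reduced folate carrier SLC19A1 with -1.85 ± 0.17, and ITM2B, MPND, THNSL2, CPXM2, ACSF2, MACROD1 and DHRS3 complete the set. Among the largest increases were RAB27B (3.30 ± 0.45), a small GTPase of vesicle secretion, the activin subunit INHBE (3.21 ± 0.61), UNC5CL (3.14 ± 0.35), the lysyl oxidase LOXL4 (2.79 ± 0.43) and MISP. A second identifier that the study's tables pair with FGB rose by 3.08 ± 0.48, and how reads were split between the 2 is uncertain. Among the largest decreases were SEC14L3, a lipid transfer protein (11.5 to 685 CPM at B with median 457, 3.18 to 239.6 CPM at FR8 with median 12.9, log2 fold change -4.98 ± 0.59, adjusted p = 7.16e-10), and CRADD, an adaptor of caspase 2 (-3.87 ± 0.56).

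Most markers of cell types did not pass the test, as was so for all genes tested, of which 15.8% passed. Apart from albumin, 3 of 10 hepatocyte markers fell (TF, AHSG and TAT, each also counted above) and none rose, with a median of -0.52. The hepatocyte markers were present in all 30 libraries, with a summed level of 30470 to 68500 CPM of the library total at B and 21040 to 43700 CPM at FR8. Of 4 erythroid markers 3 fell, with the summed level at a median of 228 CPM at B and 99 CPM at FR8. HBB ranged from 96.9 to 1101 CPM at B with a median of 250.5, and from 0 to 2267 CPM at FR8 with a median of 93.9 (log2 fold change -1.86 ± 0.51, adjusted p = 0.00194). The lowest FR8 value is that of FS animal 8 and the highest that of the library labelled FR8 of FS animal 7. Of 7 Kupffer cell and macrophage markers 1 fell, the scavenger receptor MARCO (6.84 to 67.5 CPM at B with median 25.3, 2.86 to 18.01 CPM at FR8 with median 8.1, log2 fold change -1.46 ± 0.21, adjusted p = 9.54e-08), and the summed level had medians of 464 and 416 CPM. Of 3 neutrophil markers tested 1 rose, the calprotectin subunit S100A8 (0 to 2.99 CPM at B with median 0.144, 0.658 to 9.35 CPM at FR8 with median 2.33, log2 fold change 2.84 ± 0.62, adjusted p = 1.22e-04; 3.62 without FS animal 7), and the summed level of the neutrophil list had medians of 6.66 and 9.21 CPM. None of 5 B cell, 8 endothelial and 4 cholangiocyte markers passed the edgeR call, while 1 of 9 T and NK cell markers (PRF1, perforin) and 2 of 8 stellate cell and fibroblast markers (the matrix proteoglycans DCN and LUM) fell. The 1 platelet marker tested (TUBB1, a tubulin) rose, 2 of 6 striated muscle markers (MYBPC1 and ACTN2) fell, and neither of 2 adipocyte markers passed. Striated muscle markers summed to at most 44.9 CPM in the Baseline libraries and 94.8 CPM in the FR8 libraries that were kept. The part of these shifts in the other changes was not tested.

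Compared with FR2 in the same animals (FR8vFR2), 1663 of 13531 genes differed (12.3%), 888 higher (6.56%) and 775 lower (5.73%) at FR8. Without FS animals 7 and 8 the count was 2105, with 1131 higher and 974 lower. Of the 17 UPR genes 11 rose between these timepoints and none fell. For CRELD2 the log2 fold change of FR8vFR2 was 3.40 ± 0.49 (edgeR adjusted p = 1.43e-07), and its log2 fold changes against B were 0.30 at FR2, 3.70 at FR8 and 1.33 at FR20. For DNAJB11 they were 0.03, 2.22 and 0.84. The 3 comparisons against B share the Baseline libraries. FR8vFR2 and FR8vB share the FR8 libraries, and CRELD2 was among the genes named by their FR8vB values. Cholesterol synthesis genes fell between FR2 and FR8, with 13 of 19 genes lower and none higher, SQLE among them (-2.16 ± 0.38). Of the 10 glucocorticoid targets 9 fell between FR2 and FR8, and none rose. From FR2 to FR8 the log2 fold change was -2.56 ± 0.36 for SERPINA6 and -1.97 ± 0.32 for GYS2. NOD1 was lower at FR8 than at FR2 (-1.35 ± 0.25, edgeR adjusted p = 1.1e-05), while OSMR (-0.06 ± 0.21), LCN2 (-0.01 ± 0.39) and EPO (0.26 ± 0.59) did not pass in either direction.

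From FR8 to FR20 (FR20vFR8) 677 of 13531 genes differed (5%), 528 higher (3.9%) and 149 lower (1.1%) at FR20. Without FS animals 7 and 8 the count was 627. FR20vFR8 and FR8vB share the FR8 libraries. Of the UPR genes 7 of 17 were lower and none higher at FR20, with log2 fold changes of -2.37 ± 0.49 for CRELD2 and -1.39 ± 0.32 for DNAJB11. Clock genes changed in opposite senses, with 7 of 15 higher and 3 lower. NR1D2 rose by 2.74 ± 0.34 (edgeR adjusted p = 9.83e-08), CRY2 by 2.60 ± 0.32 and USP2 by 3.04 ± 0.50, whereas BMAL1 fell, with a log2 fold change of -2.61 ± 0.41 and NPAS2 with -1.61 ± 0.35. At FR20 the log2 fold change of NR1D2 against B was 0.14. Of the 17 cell cycle genes 7 rose and none fell. Of the cholesterol synthesis genes 6 of 19 were higher and 1 lower, SQLE by 1.55 ± 0.38. ITIH4 (-0.05 ± 0.31), FASN (0.46 ± 0.45) and KMO (0.26 ± 0.27) did not pass in either direction, while NQO1 rose further (1.52 ± 0.36) and CYP1A2 fell further (-2.05 ± 0.46).

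**Figure D4:**
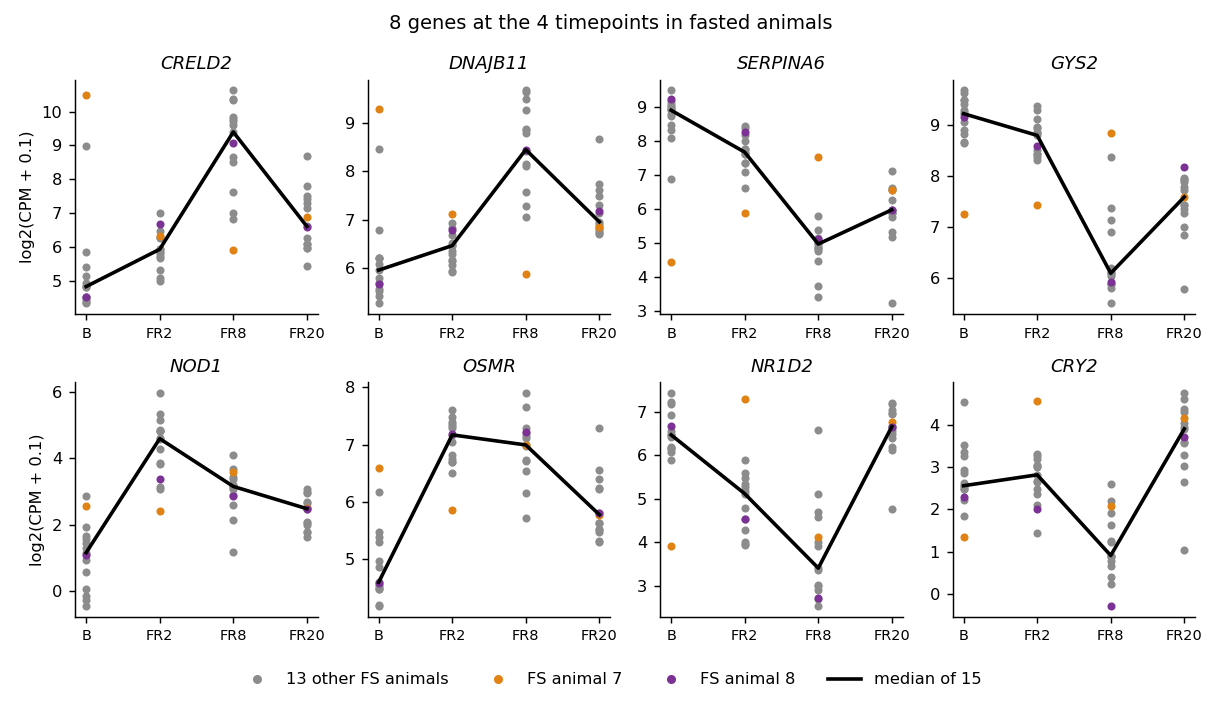
Values on the scale log2(CPM + 0.1) (y axis) of 8 genes at B, FR2, FR8 and FR20 (x axis) in the 15 FS animals, with orange for animal 7, purple for animal 8 and a black line through the median of 15. The medians of CRELD2 and DNAJB11 are highest and those of SERPINA6, GYS2, NR1D2 and CRY2 lowest at FR8, while those of NOD1 and OSMR are highest at FR2.

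The change in FS animals was set against that in the CPF animals, of which 4 have libraries at both timepoints. In CPF animals 1560 of 13531 genes passed in FR8vB (11.5%), 685 higher (5.06%) and 875 lower (6.47%). Of the 835 genes that rose in FS animals 386 (46.2%) also rose in CPF animals, where they make up 56.4% of the risen genes, and of the 1297 that fell in FS animals 627 (48.3%) also fell, 71.7% of the fallen genes in CPF animals. No gene passed in opposite directions. The difference itself, CPF minus FS, passed for 0 of 13531 genes (0%) by edgeR's quasi-likelihood test, with 597 genes at an unadjusted p under 0.05, and for 1 gene by DESeq2. That gene, PAQR9, a progestin and adipoQ receptor, is named after its value was seen, with log2 fold changes of 0.64 ± 0.23 in FS and -1.64 ± 0.44 in CPF animals (DESeq2 adjusted p of the difference 0.0237, edgeR adjusted p = 0.337). The UPR list had a median of 1.34 in FS animals and 1.57 in CPF animals, and 10 of its 17 genes rose in the latter. In CPF animals 16 of 19 cholesterol genes fell (median -2.65). The acute phase gene ITIH4 had log2 fold changes of 2.76 ± 0.34 and 3.09 ± 0.61 in FS and CPF animals, PER2 of -4.30 ± 0.37 and -4.86 ± 0.72, and PLIN2 of 3.78 ± 0.47 and 3.24 ± 0.78. Other named genes lay further apart. The median log2 change of PPP1R3C was 2.42 in FS and -0.88 in CPF animals, and that of PCK1 was -2.13 and -0.25. With 4 CPF animals, a difference that missed the threshold does not show that the fed states respond alike.

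**Figure D5:**
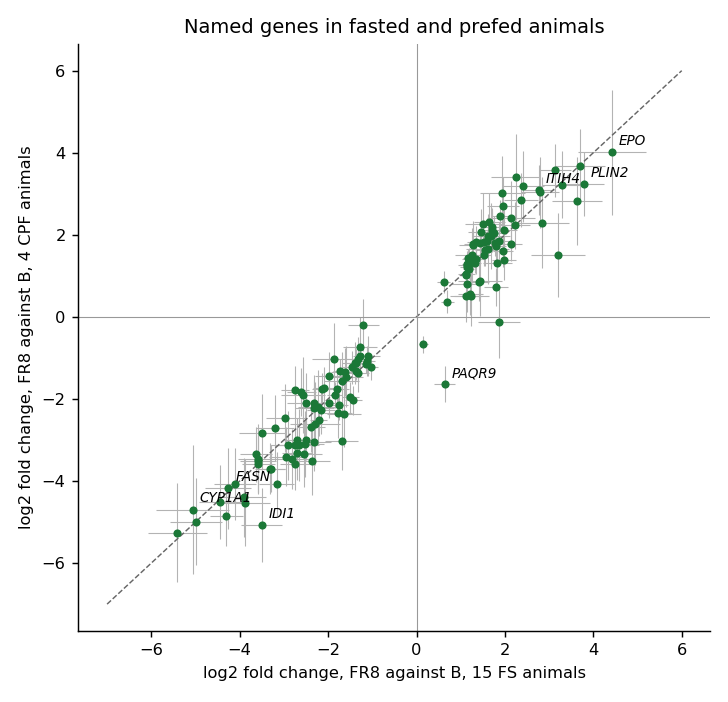
Log2 fold change of FR8 against B for the named genes in the 15 FS animals (x axis) and in the 4 CPF animals (y axis), with bars for the standard errors and a dashed line where both are equal. PAQR9 lies at 0.64 and -1.64, and the genes shown, PAQR9 aside, were chosen on the FS values.

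Among the FS animals, the change at FR8 was compared between the 3 that died and the 12 that lived. Of 12358 genes 0 passed the edgeR call for the difference (0%), the only tool run for it, with 378 genes at an unadjusted p under 0.05. The median change of the genes that rose was 1.59, 1.53 and 1.31 (log2 CPM) in the 3 animals that died and ranged from -0.56 to 1.87 in those that lived. EPO, for example, changed by 2.64 to 5.84 on the log2 scale in the animals that died and by 0.71 to 5.84 over all 15.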

How the data were processed

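Liver RNA from B, FR2, FR8 and FR20 biopsies was sequenced as poly(A) libraries (TruSeq, single reads). The submitters' notes name CASAVA 1.8.2, TopHat 1.5.0, SAMtools, HTSeq, edgeR 3.2.4 and the build Sscrofa10.2. The deposited values are raw counts per gene that the authors made from aligned reads, for 25322 Ensembl identifiers. The authors' tables of fold changes were used only to pair 700 identifiers with symbols, and their values were not used. Library totals ranged from 6877117 to 14642156 counts at B and from 11159561 to 15547165 at FR8, and detection of low genes is limited accordingly.

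Genes whose CPM summed to at least 10 were kept. Counts were normalized by TMM and fitted with edgeR 4.0.16 (R 4.3.3) in 79 libraries of 15 FS and 5 CPF animals, with a term for each animal and time terms within fed state, after leaving out FS animals 13, 14 and 16 and 1 CPF library with a total under 10000. The standard error is the log2 fold change divided by the root of F. The comparison of animals that died and lived used the 30 FS libraries at B and FR8. Pairing comes from the animal code in the titles. Deviations from the time means correlated with a median r of 0.22 within an animal. Of these values 12 of 15 lay above 0.1, and the lowest was -0.42. Between animals the median was -0.01, with 37 of 210 pairs above 0.1. For 5 of 15 animals the B library correlated best with the FR8 library of the same animal. On counts simulated for 13429 genes in FR8vB of FS animals, 187 of 200 changed genes were recovered with 1 false call. Unlike the real counts, the simulated ones held no animal running against the others and no block of genes at 0. Their share of changed genes was also smaller than the share called in FR8vB. This recovery is therefore not an error rate of the real calls.

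Named genes were members of the gene lists and, with a symbol, a mean of at least 5 CPM at 1 timepoint and the same direction in at least 12 of 15 animals, the 15 risen and 15 fallen genes with the smallest adjusted p and the 10 of each with the largest fold change. Some members are not reported here by name. Animals and lists were chosen with earlier results of these data known. SLC39A14, ERN1, PLIN2, FGF23, SEC14L3, TSC22D3, TP53INP1, SLC19A1 and RAB27B are named from the study's tables. List counts leave out members named in this way. CRP, IDI1, PER2, PIK3R1, TNC and FGB have a second identifier, with the same direction except for PIK3R1. Alternatives were RLE size factors, other filters, the likelihood ratio test, limma 3.58.1 voom, DESeq2 1.42.0, other sets of libraries, no animal term, and each animal left out. Counting is not known to use strand, so overlapping genes cannot be told apart. The 2 libraries of an animal come from 1 animal. Each p rests on the spread left after the animal and time terms, over all libraries of the fit.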

Additional observations from a re-analysis of the deposited data

Results flagged for a closer look

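The Baseline libraries left out of the comparison held a signal that the kept ones lack. The summed level of 6 striated muscle markers was 34480 CPM of the library total in FS animal 13, 41060 CPM in FS animal 14 and 38180 CPM in FS animal 16, compared with at most 44.9 CPM in the 15 Baseline libraries kept. In the same 3 libraries the hepatocyte markers summed to 16.7 to 88.2 CPM and the stellate cell and fibroblast markers to 15630 to 17680 CPM. At FR8 the same 3 animals had albumin at 92100 to 117000 CPM, compared with 112500 CPM in FS animal 7 and 34170 to 65530 CPM in the other FS animals kept. Their striated muscle markers summed to 2.36 to 22.1 CPM at FR8. Their albumin was 41460 to 52960 CPM at FR2, compared with 34090 CPM in FS animal 7 and 81850 to 107200 CPM in the others kept. At FR20 their albumin was 64850 to 93740 CPM, compared with 58720 CPM in FS animal 7 and at most 52970 CPM in the others kept. Whether the libraries of these 3 animals and of FS animal 7 carry the right labels was not tested.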

How the results depend on the processing

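Of 3948 log2 fold changes of 141 named genes under 28 alternatives, 0 turned direction and 56 fell short of the call. Of the genes, 98 kept their side of the threshold throughout. The alternative with no minimum fold keeps the main log2 fold change, so its values could not turn. The alternatives also reuse these libraries, in which most named genes passed the call. At an adjusted p under 0.05 alone, with no minimum fold, 6479 genes passed in FR8vB, 5723 in FR8vFR2 and 3167 in FR20vFR8, and PAQR9, TLR4 and XBP1 then passed in FR8vB. Without the animal term, the replicate block given by the animal code, 1999 genes passed in FR8vB, and ABCC3, HBB, NR0B2 and OAS2 were lost while no other named gene changed its call. With all 18 FS animals, and so with the 3 Baseline libraries that lack albumin, 1477 genes passed, 35 named genes were lost, and the median of the complement list moved to -0.11 and that of the hypoxia inducible factor targets to -0.10. DESeq2 gave 1 gene for CPF minus FS. Leaving out 1 FS animal gave 1985 genes (without FS animal 5) to 2550 genes (without FS animal 7) in FR8vB. Single animals also decided calls near the fold threshold. NFKBIA was lost without FS animal 1, 10, 15 or 17 (-0.975 to -0.995), IGF1 without FS animal 4, 5 or 9 (-0.938 to -0.998), NR0B2 without FS animal 6 or 9 (0.89 and 0.93), SGK1 without FS animal 2 (-0.97) and PIK3R1 without FS animal 5 (1.12). Leaving out any 1 CPF animal, or any 1 animal that died, gave 0 genes in the respective comparison. Under voom FGB and PDIA4 were lost, with only the 30 libraries at B and FR8 PDIA4 and PIK3R1, and without the 3 animals that died PIK3R1 and SGK1. The alternatives without FS animals 7 and 8, and without FS animals 3, 6, 7 and 8 (2866 genes in FR8vB), were chosen after seeing the data. The cause of these differences was not tested. With 4 CPF animals and 3 animals that died, small differences between groups were not detectable.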
